A study of Mus musculus with 8 samples.

Results

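The integrins and focal adhesion proteins were followed in primary cultures of mouse brain pericytes, as a list of 45 genes out of the 54532 gene identifiers in the count files. Membership follows from function, and no measured value enters the rule, though the list was drawn up with earlier results of these data known. It holds 25 integrin subunits, 17 of them α and 8 β, and 20 adaptors that sit on the inner face of the membrane. All 45 were matched to 1 identifier each, and 43 had enough counts to be tested. The other members, *Itgal* with 4 to 14 counts per culture and *Fermt1* with 0 to 6, were too low. The study asked what TGF‐β1, a secreted cytokine, does to pericytes, the mural cells that wrap capillaries. RNA was sequenced from 8 cultures of wild-type (WT) cells, 4 given vehicle (numbered 1 to 4 in the labels) and 4 given TGF‐β1 at 5 μg per mL (numbered 5 to 8), all for 48 h. The labels used here name no strain or age. Both arms share the same culture history: papain digestion of whole brain, early passages on plates coated with collagen I, which is itself an integrin ligand, and later passages in pericyte medium. The methods speak of independent isolates treated both ways, but the labels do not pair the cultures, so the groups were compared as unpaired. The p-values set the group difference against the spread between these cultures, and any differences between isolates are part of that spread.

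Integrins are pairs of an α and a β chain that cross the cell membrane. The α chain largely sets which matrix protein is bound: collagen, laminin, proteins with an arginine-glycine-aspartate (RGD) motif such as fibronectin and vitronectin, or counter-receptors on leukocytes and endothelium. The short β tail recruits talin and kindlin, and these nucleate layers of scaffold, kinase and actin-binding proteins that form the focal adhesion. Mural cells hold the vessel's basement membrane through such contacts, and integrins that contain αv also release TGF‐β from its latent complex.

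The cultures held 45255235 to 47651397 counts each, so 3 counts corresponded to 0.0631 to 0.0658 CPM (counts scaled to a common library total). The pericyte markers were mixed. *Pdgfrb* (202 CPM with vehicle and 291 with TGF‐β1), *Cspg4*, *Notch3* and *Cd248* were abundant, whereas *Kcnj8*, *Abcc9*, *Vtn* and *Des* were each under 1 CPM in every culture, and *Cdh5*, an endothelial cadherin, stood at 349 to 383 CPM while *Pecam1* was near 1 CPM. Of the 11 pericyte markers 4 rose, *Pdgfrb*, *Cspg4*, *Mcam* and *Cd248*. The 2 that fell were *Rgs5*, from 8.62 to 2.13 CPM (log2 fold change −2.02), and *Anpep*, from 40.5 to 30.1 CPM (−0.43). The summed level of the 11 went from 578 to 597 CPM with vehicle to 756 to 784 CPM with TGF‐β1. Of 8 fibroblast markers 2 rose, *Col1a1* and *Col1a2*, and 2 fell, *Dcn* and *Dpt*. Their summed level, most of it collagen I, went from 3718 to 3879 CPM to 5327 to 5569 CPM. Of 8 endothelial markers 1 rose, *Flt1* (81.7 and 99.2 CPM), and 1 fell, *Tek* (2.71 and 1.99 CPM). The endothelial sum was 471 to 484 CPM with vehicle and 472 to 498 CPM with TGF‐β1. Of 6 smooth muscle markers 1 rose and 1 fell, with a sum of 718 to 793 CPM with vehicle and 719 to 759 CPM with TGF‐β1. Of 5 astrocyte markers 2 rose, *Aldh1l1* and *Slc1a3*, and 1 fell, *Slc1a2* (38.5 and 16.3 CPM). The astrocyte sum went from 50.1 to 57.2 CPM with vehicle to 39.2 to 44.2 CPM with TGF‐β1. Of 5 oligodendrocyte and Schwann markers 1 rose and 1 fell, with a sum of 4.21 to 5.59 CPM against 5.42 to 6.07 CPM. The part of such shifts in the results was not tested. In bulk RNA, fewer cells of a type and less RNA per cell cannot be told apart.

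Of the 43 members tested, 27 (62.8%) differed between TGF‐β1 and vehicle at an adjusted p under 0.05 (edgeR quasi-likelihood test, Benjamini-Hochberg over 22544 genes), against 41.3% of all genes. There were 14 higher (32.6%) and 13 lower (30.2%), against 20.9% and 20.3% of all genes. Most members are well expressed, and abundant genes are called more often. Among genes with a mean of at least 10 CPM, 60.9% were called, and of the 29 members at that level 22 (75.9%) were called. The groups did not overlap for 25 members (58.1%), all of them called, against 37.9% of all genes. A called change of at least 0.5 on the log2 scale was found for 11 members (25.6%), 7 higher and 4 lower, against 14.0% of all genes. The median log2 fold change was 0.0022 over the members and −0.011 over all genes tested. The list therefore did not move in a single direction. Its β chains had a median of 0.51, with 4 of 8 higher and 1 lower, whereas its adaptors had a median of −0.04, with 5 of 19 tested higher and 8 lower.

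**Figure D1:**
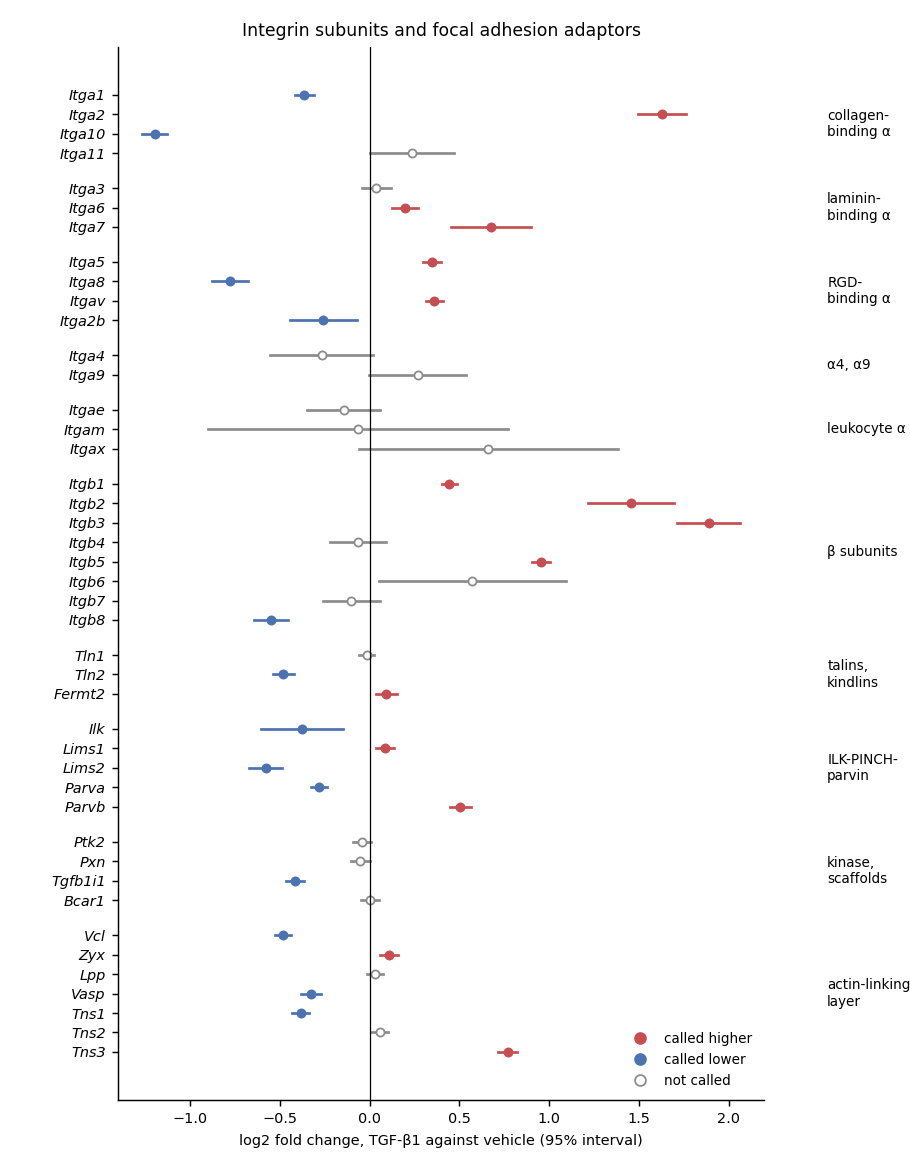
Log2 fold change of TGF‐β1 against vehicle (x axis) for the 43 members tested, grouped by role, each with its 95% interval. Red points were called higher, blue points lower and open grey points were not called, with *Itgb3* (1.89) and *Itga2* (1.63) at the upper end and *Itga10* (−1.20) at the lower end.

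*Itgb1* (ENSMUSG00000025809, GRCm38 chr8:128685654-128733200, plus strand) encodes β1, the partner of most α chains and the most abundant β chain here per length (204 and 277 CPM per kb of exon). It measured 823, 812, 852 and 839.6 CPM in the vehicle cultures and 1105, 1160.0, 1119 and 1143 CPM in the TGF‐β1 cultures. Every TGF‐β1 culture lay above every vehicle culture. The mean went from 832 ± 17.5 to 1132 ± 24.4 CPM (SD, n = 4 each), a log2 fold change of 0.44 (SE 0.02, edgeR adjusted p = 1.81e-21).

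*Itgb5* (ENSMUSG00000022817, GRCm38 chr16:33829665-33949338, plus strand) encodes β5, which pairs with αv to bind vitronectin. It was at 230.4, 225, 230.4 and 241 CPM with vehicle and at 436, 463.5, 447 and 453 CPM with TGF‐β1. The means were 232 ± 6.95 and 449.8 ± 11.6 CPM (SD, n = 4), a 1.94-fold difference and a log2 fold change of 0.96 (SE 0.02, edgeR adjusted p = 1.50e-31). This was the smallest adjusted p among the members. *Itgb3* (ENSMUSG00000020689, GRCm38 chr11:104608000-104670476, plus strand), the other classical partner of αv, showed the largest fold of all members. Its cultures read 3.41, 3.51, 3.68 and 3.75 CPM with vehicle and 11.3, 14.6, 12.6 and 14.6 CPM with TGF‐β1, 3.70-fold higher (log2 fold change 1.89, SE 0.09, edgeR adjusted p = 3.18e-22). *Itgb8* encodes β8, which with αv binds latent TGF‐β and presents it to cells. It went the opposite way, from 34.2, 30.3, 30.2 and 30.4 CPM to 22.3, 21.3, 21.2 and 20.8 CPM (log2 fold change −0.55, SE 0.05, edgeR adjusted p = 2.77e-13). Vehicle culture 1 stood above the other vehicle cultures here, and the groups remained apart. *Itgb6*, whose αvβ6 product is another activator of latent TGF‐β and belongs to epithelia, was at 0.417 to 0.80 CPM with vehicle and 0.66 to 0.895 CPM with TGF‐β1, and did not pass the test (log2 fold change 0.57, 95% interval 0.05 to 1.10, edgeR adjusted p = 0.0741).

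The α chains that recognise RGD were split. *Itga5* (ENSMUSG00000000555, GRCm38 chr15:103344286-103366763, minus strand), the fibronectin receptor chain, read 338, 339, 346 and 360.2 CPM with vehicle and 424, 443, 441 and 449.8 CPM with TGF‐β1 (log2 fold change 0.35, SE 0.02, edgeR adjusted p = 2.36e-16). *Itgav* (ENSMUSG00000027087, GRCm38 chr2:83724397-83806916, plus strand) encodes αv, shared by β1, β3, β5, β6 and β8. It read 276.5, 285, 292 and 293 CPM against 359.7, 376, 363 and 373 CPM (log2 fold change 0.36, SE 0.02, edgeR adjusted p = 4.42e-17). Both rose by a similar amount with groups well apart. *Itga8* (GRCm38 chr2:12106632-12301922, minus strand) encodes α8, the nephronectin receptor chain of mural and mesenchymal cells. It fell from 53.5, 47.3, 49.4 and 52.1 CPM to 33.1, 27.8, 29.8 and 27.3 CPM (log2 fold change −0.78, SE 0.05, edgeR adjusted p = 1.60e-13). *Itga2b*, the αIIb chain of platelets, was low throughout, at 5.83 to 6.86 CPM with vehicle and 5.10 to 6.11 CPM with TGF‐β1. Its groups overlapped through TGF‐β1 culture 8, and its call (log2 fold change −0.26, edgeR adjusted p = 0.0218) was lost when any of 5 single cultures was left out (adjusted p up to 0.0839). An exact two-sided permutation test of its CPM gave p = 0.0571. Of the 5 platelet markers 4 were under 1 CPM and none was called, with a summed level of 1.67 to 2.48 CPM against 1.83 to 3.32 CPM.

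**Figure D2:**
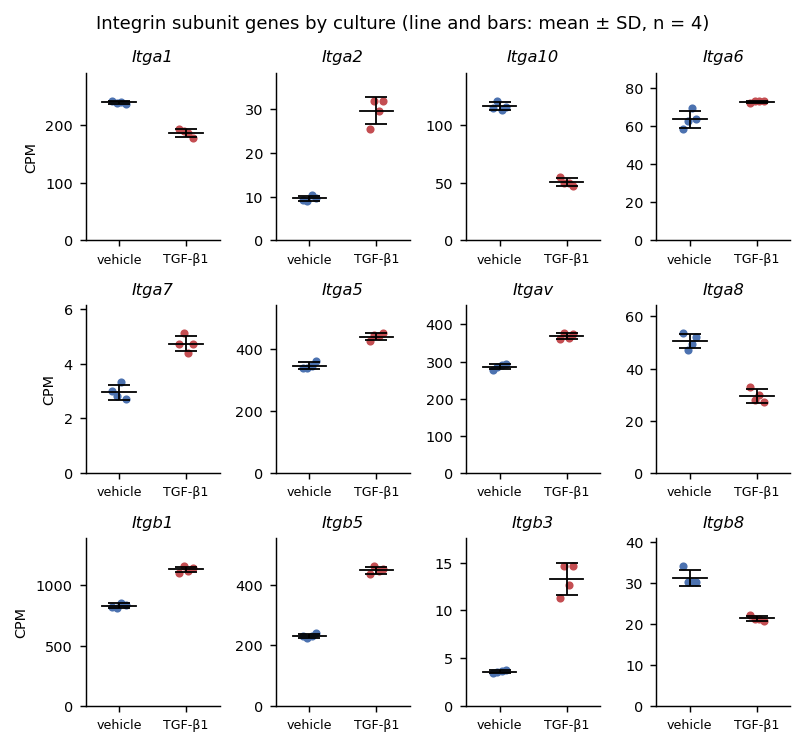
CPM (y axis, 1 panel per gene, each with its own scale) of 12 integrin subunits in the 4 vehicle and 4 TGF‐β1 cultures, as points with the group mean and SD. The *Itgb5* and *Itgb3* points with TGF‐β1 all lie above those with vehicle, and the *Itga10*, *Itga8* and *Itgb8* points all lie below.

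The stretches just upstream of the α5, β1 and β5 genes are shown as 3 examples of abundant receptor chains that rose, chosen after their values were seen. RefSeq windows of 300 bases, from 250 before to 50 after a transcript start (GRCm38.p6), were found for 32 of the 45 members, 39 windows in all. The GC box GGGCGG, searched on both strands and bound by Sp1-type factors, was in 10 of 12 windows of members that were higher (83.3%), 3 of 10 windows of members that were lower (30.0%) and 7 of 17 windows of members that were not called (41.2%). It was in 35.7% of all 32851 windows and in 65.1% of the windows of genes with a mean of at least 10 CPM. The palindromic SMAD motif GTCTAGAC was in 0 of the 39 member windows and in 0.213% of all windows. The shorter SMAD unit CAGACA was in 2 of 12 windows of higher members (16.7%), 1 of 10 of lower and 5 of 17 of those not called. It was in 21.0% of all windows and in 15% of those of genes with a mean of at least 10 CPM. The AP-1 motif TGANTCA was in 1 of 12 windows of higher members, 0 of 10 of lower and 3 of 17 not called. It was in 7.81% of all windows. The TEAD motif GGAATG was in 1 of 12 windows of higher members, 2 of 10 of lower and 1 of 17 not called. It was in 14.7% of all windows. The GC box is thus 1 of several motifs searched. The *Itgb1* window holds CAGACA and GGAATG, both left in lower case. In the windows of *Itga5* (chr15:103366742-103367041, minus strand), *Itgb1* (chr8:128685404-128685703, plus strand) and *Itgb5* (chr16:33829415-33829714, plus strand), printed 5′ to 3′ on the gene's strand, capitals mark the GC box or its complement.
Itga5: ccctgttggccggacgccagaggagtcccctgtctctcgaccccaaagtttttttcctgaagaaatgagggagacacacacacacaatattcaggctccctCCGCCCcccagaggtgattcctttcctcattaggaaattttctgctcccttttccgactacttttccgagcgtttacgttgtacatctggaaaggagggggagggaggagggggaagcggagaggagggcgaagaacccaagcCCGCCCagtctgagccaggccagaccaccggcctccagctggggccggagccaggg
Itgb1: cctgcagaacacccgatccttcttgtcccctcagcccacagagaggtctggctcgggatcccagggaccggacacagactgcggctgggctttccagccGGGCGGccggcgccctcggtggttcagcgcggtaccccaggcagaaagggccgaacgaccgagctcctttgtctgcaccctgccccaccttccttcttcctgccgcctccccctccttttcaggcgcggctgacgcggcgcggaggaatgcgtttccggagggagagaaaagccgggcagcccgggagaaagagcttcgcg
Itgb5: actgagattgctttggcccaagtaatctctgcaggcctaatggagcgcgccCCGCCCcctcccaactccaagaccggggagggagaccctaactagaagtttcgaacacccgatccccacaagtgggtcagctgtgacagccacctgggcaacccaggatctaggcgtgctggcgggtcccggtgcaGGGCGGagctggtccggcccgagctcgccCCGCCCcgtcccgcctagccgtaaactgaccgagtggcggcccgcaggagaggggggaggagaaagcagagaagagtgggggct
The box occurred 2 times in the *Itga5* window, once in that of *Itgb1* and 3 times in that of *Itgb5*. The window of *Itgav*, which also rose, holds the GC box as well and is not shown. Among members that were lower, *Ilk*, *Tns1* and *Vcl* have windows with the box too. Copies were counted only in the 3 windows shown here, so their number was not compared between higher and lower members. Such matches describe letters in these windows and do not show binding.

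The collagen-binding α chains moved apart, with 1 higher, 2 lower and 1 not called. *Itga1* (GRCm38 chr13:114953096-115101964, minus strand), whose α1 chain favours basement membrane collagen IV, read 242.5, 239, 240.3 and 237 CPM with vehicle and 193, 189, 186 and 178 CPM with TGF‐β1 (log2 fold change −0.36, SE 0.03, edgeR adjusted p = 2.23e-16). *Itga2*, its neighbour on the same strand (GRCm38 chr13:114833081-114932100), encodes α2, which favours fibrillar collagen I. It read 9.27, 9.04, 10.5 and 9.68 CPM with vehicle and 25.5, 32.0, 29.6 and 32.0 CPM with TGF‐β1, 3.09-fold higher (log2 fold change 1.63, SE 0.07, edgeR adjusted p = 5.26e-21). These adjacent genes thus moved in opposite directions, each with groups that did not overlap. *Itga10* (GRCm38 chr3:96645584-96664519, plus strand), whose α10 chain is best known from cartilage, had the largest fall of all members. It went from 115, 121, 113 and 115.0 CPM to 54.8, 50.0, 50.0 and 47.3 CPM (log2 fold change −1.20, SE 0.03, edgeR adjusted p = 5.34e-28). Of its exonic bases 33.5% are shared with *Gm42957*, a same-strand gene at 4.90 CPM that also fell (log2 fold change −0.90, SE 0.11), and how shared reads were counted is not given in the sources used here. *Itga11*, the α11 chain of collagen-producing fibroblasts, was at 2.82 to 4.04 CPM and 3.81 to 4.56 CPM, overlapping, with a log2 fold change of 0.24 (95% interval 0.0030 to 0.47, edgeR adjusted p = 0.102). It passed the test only without vehicle culture 1 (adjusted p = 0.0319).

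Of the 3 laminin-binding α chains, 2 rose. *Itga6* was at 58.6, 62.9, 69.5 and 64.0 CPM with vehicle and 72.2, 73.3, 73.5 and 73.1 CPM with TGF‐β1, a small rise with no overlap (log2 fold change 0.20, SE 0.04, edgeR adjusted p = 1.67e-05). *Itga7*, the laminin receptor chain typical of muscle, rose from 3.02, 2.81, 3.33 and 2.71 CPM to 4.74, 5.12, 4.41 and 4.72 CPM (log2 fold change 0.68, SE 0.11, edgeR adjusted p = 1.66e-06). *Itga3* measured 38.0 ± 0.862 and 39.0 ± 2.08 CPM (SD, n = 4), with a log2 fold change between −0.04 and 0.12 (95% interval). *Itgb4*, the epithelial partner of α6, was at 8.17 to 9.21 CPM and 7.81 to 9.41 CPM and was not called. All 5 epithelial markers were under 1 CPM, with a summed level of 0.737 to 1.03 CPM against 0.766 to 1.29 CPM.

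Among the α4, α9 and leukocyte α chains, with β2 and β7, only *Itgb2* was called, and all were under 10 CPM. *Itga4* (2.40 and 2.00 CPM) and *Itga9*, whose products bind VCAM-1, fibronectin and tenascin, were not called. *Itga9* read 2.43, 2.72, 2.57 and 1.95 CPM with vehicle and 3.08, 2.59, 3.08 and 2.89 CPM with TGF‐β1 (log2 fold change 0.27, 95% interval −0.0028 to 0.54). *Itgae*, whose αE chain binds E-cadherin, read 5.75, 5.11, 4.95 and 4.66 CPM against 4.12, 4.47, 4.69 and 5.21 CPM (log2 fold change −0.15, 95% interval −0.35 to 0.06). The groups overlapped for both, and *Itgam* and *Itgax*, under 1 CPM, were not called either. *Itgb7*, partner of α4 and αE, was at 8.50 and 7.93 CPM and was not called. *Itgb2*, the β2 chain that only leukocyte α chains are known to pair with, rose from 1.93, 2.30, 2.17 and 1.73 CPM to 5.80, 6.10, 5.41 and 5.04 CPM (log2 fold change 1.46, SE 0.12, edgeR adjusted p = 2.84e-14). Its groups were far apart, while its α partners *Itgal*, *Itgam* and *Itgax* were at 0.532 CPM or less in every culture. Of the *Itgam* exonic bases 68.7% are shared with *Gm49368*, a same-strand gene at 0.044 CPM or less. How shared reads were counted is not given in the sources used here, so the *Itgam* level is uncertain. Of the 9 macrophage and microglia markers 5 were under 1 CPM in every culture and 1, *Csf1r*, rose (log2 fold change 0.73). *Cx3cr1* was at 0.777 and 1.03 CPM and was not called. Their summed level was 109 to 114 CPM with vehicle and 108 to 111 CPM with TGF‐β1, nearly all of it *Tmem119* (102 and 98.5 CPM). *Tyrobp* had no count in all but 1 culture and *Ptprc*, the pan-leukocyte marker, was at 0.498 to 0.905 CPM with overlapping groups. The part of such cells in the *Itgb2* value was not tested.

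Levels can be set side by side between genes only per length, as CPM per kb of exon. On this scale the α chains summed to 158 ± 2.54 with vehicle and 170.3 ± 2.29 with TGF‐β1, and the β chains to 277.5 ± 5.70 and 414 ± 9.22 CPM per kb (SD, n = 4). *Itga5* was the leading α chain in every culture, with 44.4 ± 0.663% of the summed α level under vehicle and 52.3 ± 0.705% under TGF‐β1. *Itgav* followed with 16.9% and 20.1%. The *Itga10* share went from 14.2 ± 0.522% to 5.73 ± 0.428%, and that of *Itga1* from 8.17% to 5.89%. As a class, the collagen-binding chains made up 23.6 ± 0.664% and 14.5 ± 0.498%, the RGD-binding chains 66.4 ± 0.777% and 75.4 ± 0.606%, and the laminin-binding chains 8.92% and 9.11% of the α total. Although *Itga2* rose in fold, it was 2.45% of the α total with TGF‐β1, so the collagen-binding class became smaller. Among β chains *Itgb1* held 73.4 ± 0.455% and 67.0 ± 0.0991%, and *Itgb5* 23.5 ± 0.451% and 30.6 ± 0.157%. *Itgb8* went from 1.02% to 0.467% and *Itgb3* from 0.219% to 0.543%. These shares are RNA levels, not receptor numbers, and are given as a description.

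**Figure D3:**
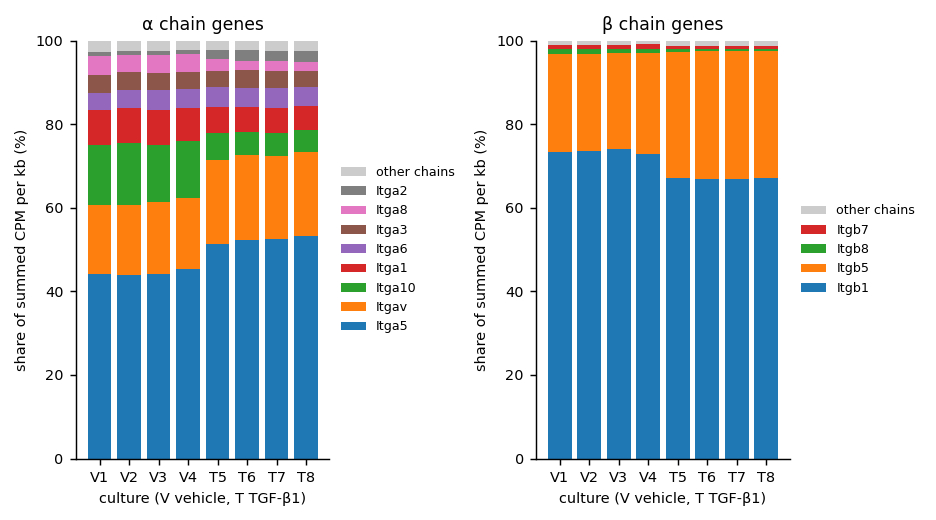
Share of each subunit in the summed CPM per kb (y axis, percent) of the α chains and of the β chains, as 1 stacked bar per culture, V1 to V4 for vehicle and T5 to T8 for TGF‐β1. The *Itga5* and *Itgb5* segments are taller and the *Itga10* segment shorter in all 4 TGF‐β1 cultures.

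Among the proteins that switch integrins on, talin-1 was level. *Tln1* read 1054, 1060.0, 1059 and 1050.0 CPM with vehicle and 1050.0, 1039, 1063 and 1029 CPM with TGF‐β1, with a log2 fold change between −0.06 and 0.03 (95% interval, edgeR adjusted p = 0.613). *Tln2*, the talin of muscle and brain, fell from 167, 176, 166 and 170.4 CPM to 131, 118, 121.5 and 116 CPM (log2 fold change −0.48, SE 0.03, edgeR adjusted p = 4.80e-17). The kindlin *Fermt2* was slightly higher (132 and 141 CPM, log2 fold change 0.09, edgeR adjusted p = 0.00801), with groups that overlapped and a call that was lost without vehicle culture 2 (adjusted p = 0.0515).

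All 5 genes of the ILK, PINCH and parvin complex, which couples β tails to actin, were called, and its paralogue pairs went opposite ways. *Parva*, the more abundant parvin per length with vehicle (44.7 against 27.4 CPM per kb for *Parvb*), fell from 454 ± 2.46 to 374 ± 3.90 CPM (SD, n = 4, log2 fold change −0.28, edgeR adjusted p = 6.55e-15). *Parvb* rose from 121, 116, 121 and 126 CPM to 160.5, 180.5, 172 and 174 CPM (log2 fold change 0.51, SE 0.03, edgeR adjusted p = 9.84e-18). Neither parvin's groups overlapped, and with TGF‐β1 they stood at 36.8 CPM per kb for *Parva* and 38.9 for *Parvb*. Of the PINCH genes, *Lims2* fell from 34.7, 35.4, 34.8 and 34.4 CPM to 23.0, 22.3, 25.4 and 22.5 CPM (log2 fold change −0.58, SE 0.04, edgeR adjusted p = 7.69e-15). *Lims1*, the more abundant PINCH gene per length (52.2 and 55.5 CPM per kb, against 11.4 and 7.62 for *Lims2*), rose slightly, from 245, 247.6, 267 and 262 CPM to 276, 269.7, 271 and 269 CPM with no overlap (log2 fold change 0.09, edgeR adjusted p = 0.00438). *Ilk*, the pseudokinase at the centre, read only 4.01 ± 0.150 and 3.08 ± 0.260 CPM (log2 fold change −0.38, edgeR adjusted p = 0.00568). Its exons are overlapped over 89.7% of their length by *Rrp8* and *Taf10* on the opposite strand, at 38.8 and 54.5 CPM with vehicle, and the strand setting of the counting is not given in the sources used here. The *Ilk* value is therefore uncertain.

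The signalling scaffold had the smallest share of called genes among the adaptor layers, 25%. Its median log2 fold change was −0.05, against −0.01 for the talins and kindlins and 0.03 for the actin-linking layer. *Ptk2*, the focal adhesion kinase, had a log2 fold change between −0.09 and 0.0089 (168 and 163 CPM), *Pxn*, paxillin, between −0.10 and 0.0004 (150.3 and 145 CPM), and *Bcar1*, p130Cas, between −0.05 and 0.05 (143.5 and 143.7 CPM), as 95% intervals. The paxillin paralogue *Tgfb1i1*, also called Hic-5 and first found as a transcript induced by TGF‐β1, was here lower with TGF‐β1. It read 225, 214, 228 and 220.2 CPM with vehicle and 163, 168, 168 and 166 CPM with TGF‐β1 (log2 fold change −0.42, SE 0.02, edgeR adjusted p = 1.80e-18). It was the only member of this layer that was called in the main comparison, and its groups did not overlap.

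In the layer that ties adhesions to actin, 2 genes rose and 3 fell. *Vcl* (ENSMUSG00000021823, GRCm38 chr14:20929398-21033676, plus strand), vinculin, which binds talin and actin under tension, fell from 581, 583, 611 and 603 CPM to 431, 418, 426 and 428 CPM (log2 fold change −0.48, SE 0.02, edgeR adjusted p = 3.20e-22). On the opposite strand *Ap3m1* overlaps 25.5% of its exonic bases, and *Ap3m1* was higher (71.9 and 82.0 CPM, log2 fold change 0.19). *Vasp*, which promotes actin filament elongation, fell from 127 to 101 CPM (log2 fold change −0.33, edgeR adjusted p = 1.18e-13). *Zyx*, zyxin, a sensor of strained filaments, rose by little, from 284 to 306 CPM (log2 fold change 0.11, edgeR adjusted p = 0.000269), and its relative *Lpp* was not called (741 and 757 CPM). The tensins, which take over β tails in matrix-bound fibrillar adhesions, split. *Tns1* fell from 496.5, 507, 472 and 476 CPM to 382, 369.9, 378 and 365 CPM (log2 fold change −0.38, SE 0.02, edgeR adjusted p = 8.53e-18). *Tns3* rose from 102, 103, 103 and 102 CPM to 169, 178, 176 and 176 CPM (log2 fold change 0.77, SE 0.03, edgeR adjusted p = 2.28e-27). No culture of either gene crossed into the range of the other group. *Tns2* read 348, 354, 336 and 349.9 CPM with vehicle and 364, 359.5, 366.5 and 352 CPM with TGF‐β1. Its groups overlapped and it lay at the threshold (log2 fold change 0.06, edgeR adjusted p = 0.0511).

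**Figure D4:**
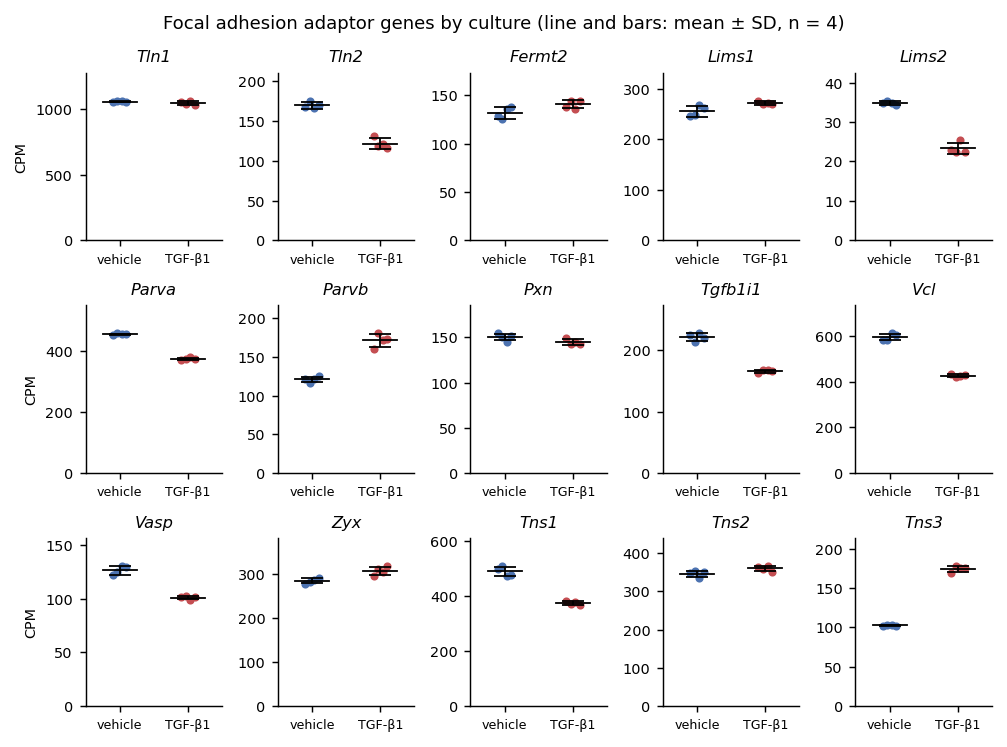
CPM (y axis, 1 panel per gene, each with its own scale) of 15 adaptor genes in the 4 vehicle and 4 TGF‐β1 cultures, as points with the group mean and SD. *Tns3* and *Parvb* are higher and *Vcl*, *Tns1*, *Tgfb1i1*, *Tln2* and *Lims2* lower in all 4 TGF‐β1 cultures, while the *Tln1* and *Pxn* points overlap.

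The *Vcl* window is shown because it held the CArG box, the element bound by serum response factor in many genes of the actin cytoskeleton. In the window (RefSeq, GRCm38.p6, chr14:20929148-20929447, plus strand, 5′ to 3′) capitals mark the match, which starts 227 bases before the transcript start. This window also holds repeated copies of the GC box and a match to the TEAD motif, left in lower case.
Vcl: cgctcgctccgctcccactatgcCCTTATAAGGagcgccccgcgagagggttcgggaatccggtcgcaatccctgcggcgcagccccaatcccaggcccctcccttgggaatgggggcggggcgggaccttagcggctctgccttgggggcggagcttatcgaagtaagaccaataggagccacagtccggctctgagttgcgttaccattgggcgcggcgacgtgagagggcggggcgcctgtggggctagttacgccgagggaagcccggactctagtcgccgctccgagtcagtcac
The box was found in the windows of 3 members, *Vcl*, which fell, *Fermt2*, which rose slightly, and *Itgb6*, which was not called. It was in 1.63% of all windows and in 1.34% of those of genes with a mean of at least 10 CPM.

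Ratios within a culture do not depend on how the cultures are scaled. For 10 pairs of related members, chosen after their values were seen, the log2 ratio of CPM is given as a description, with no test. These ratios are not corrected for length, so they show shifts and not which gene of a pair is higher. The ratio of *Itgb3* to *Itgb8* shifted most, from −3.12 ± 0.14 to −0.69 ± 0.22 (SD, n = 4), a difference of 2.43. In CPM per kb of exon, *Itgb3* and *Itgb8* were at 0.608 and 2.82 with vehicle. With TGF‐β1 they were at 2.25 ± 0.28 and 1.93 ± 0.06 CPM per kb (SD, n = 4). The *Tns3* to *Tns1* ratio went from −2.25 to −1.10. *Itga2* to *Itga1* shifted by 1.99, *Parvb* to *Parva* by 0.79 and *Itgb5* to *Itgb1* by 0.51. The ratio of *Itga8* to *Itga5* fell by 1.13, *Itga10* to *Itga1* by 0.84, *Lims2* to *Lims1* by 0.67, *Tln2* to *Tln1* by 0.47 and *Tgfb1i1* to *Pxn* by 0.36. TGF‐β1 culture 5 was the one nearest to vehicle for 8 of the 11 members with a called change of at least 0.5, and it still lay outside the vehicle range for each of them.

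**Figure D5:**
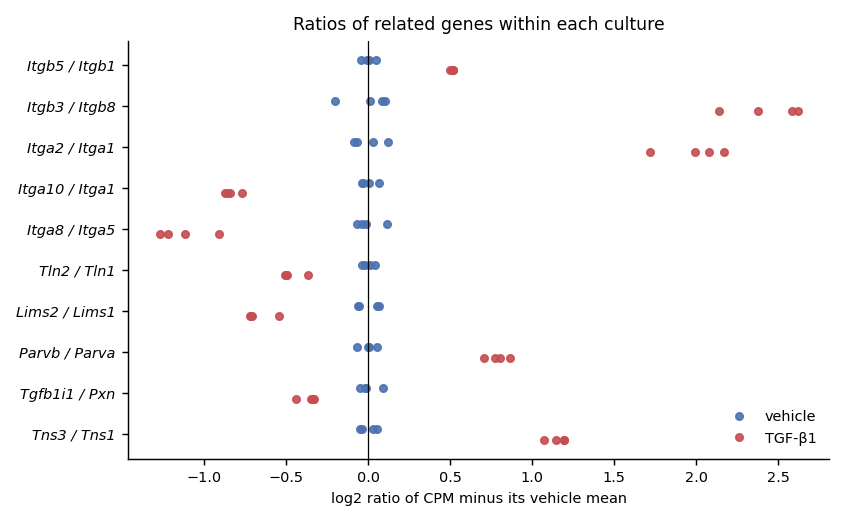
Log2 ratio of CPM of 10 gene pairs (y axis) in each culture, minus the vehicle mean of that pair (x axis), for 4 vehicle and 4 TGF‐β1 cultures. The TGF‐β1 points lie apart from the vehicle points for each pair, furthest for *Itgb3* to *Itgb8*.

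The wider adhesion machinery was mixed in the same manner. Of 68 other focal adhesion genes 67 were tested, and 25 rose and 20 fell (67.2% called, median log2 fold change 0.02), against 41.3% of all genes and 60.9% of those with a mean of at least 10 CPM. The largest changes were in *Tns4*, a tensin without the actin-binding part (log2 fold change 2.54), *Synpo2*, an actin-bundling protein of muscle (−2.11), and *Kank4*, of a family that binds talin (−1.55).

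Of 42 ligand genes 37 were tested, and 22 rose and 11 fell (89.2% called, median log2 fold change 0.23), against 20.9% of all genes higher, 20.3% lower and 60.9% called among those with a mean of at least 10 CPM. Among collagens 8 of 10 rose and 2 fell, with *Col5a2* (log2 fold change 1.40), *Col1a1* (0.67) and *Col3a1* (0.64) as the largest changes, while the α1 and α10 receptor chains fell and α2 rose. Among RGD ligands 8 of 11 rose and 2 fell, led by *Tnc*, tenascin-C (2.08), *Fbn1*, fibrillin-1 (1.81), and *Thbs1*, thrombospondin-1 (1.13). The laminin chains were divided, 6 of 11 higher and 4 lower. *Lama3* fell (−1.65, from 8.77 to 2.79 CPM) and *Lamb3* rose (1.05, from 0.673 to 1.40 CPM), both at under 10 CPM. Of the 5 tested cell-surface and α9 ligands none rose and 3 fell, namely *Vcam1*, the α4β1 counter-receptor (−1.58), *Icam1*, the β2 counter-receptor (−0.38), and *Svep1*, an α9 ligand (−0.30).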

How the data were processed

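RNA from 8 primary cultures of mouse brain pericytes, 4 per group, was prepared with a stranded total RNA kit and sequenced. Per the methods and the processing notes, reads were mapped to mm10 by the authors (STAR 2.7.5c, run in 2 passes) and freed of PCR duplicates (samtools 1.15), and the deposited values are unnormalized featureCounts 2.0.3 counts per Ensembl gene. The strand setting, annotation release and treatment of shared reads are not given in the sources used here. Counts 1 to 20 were even in 68.5 to 70.2% of cases. If both mates of a pair were counted, independent fragments are fewer than counts.

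Symbols and positions of 54495 of the 54532 identifiers came from GENCODE M21. edgeR 4.0.16 in R 4.3.3 (filterByExpr, TMM, robust quasi-likelihood test) was run over 22544 genes, with Benjamini-Hochberg adjustment and a threshold of 0.05. SE is the log2 fold change over the square root of F. CPM uses TMM factors, and CPM per kb the union of exons. On simulated data for 22544 genes, edgeR recovered 143 of 200 changed genes (71.5%), and 7.14% of its calls were false. DESeq2 1.42.0 recovered 140 (70.0%), with 7.89% of its calls false. The simulation changed 200 genes by fixed folds, whereas 41.3% of genes were called in the data, so its rates need not hold here.

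The members and lists were chosen with earlier results of these data known. Values per culture are given for members called with an absolute log2 fold change of at least 0.5 and for the member with the highest CPM per kb in each role. Others given per culture (*Itgav*, *Itga1*, *Tln2*, *Vcl*, *Tns1*) were chosen after their values were seen. Of each other list the 3 largest called changes are named, except 1 gene that is not reported here. Other settings tried were DESeq2 itself, edgeR scaled by its size factors or by library totals, filters of at least 1 count in any or 10 in every culture, counts divided by 2, the longest transcript as length, and each culture left out.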

Additional observations from a re-analysis of the deposited data

Results flagged for a closer look

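Dixon's test was applied to the 4 cultures of each group for the 43 tested members, 86 groups in all, and 4 groups held a culture far from the other cultures, where chance gives about 4.3 (1 in 20). *Itga2b* in TGF‐β1 culture 8 was at 6.11 CPM, with the next culture at 5.17 CPM. *Itgb4* in TGF‐β1 culture 5 was at 9.41 CPM, with the next at 8.02 CPM. *Itgb8* in vehicle culture 1 was at 34.2 CPM, with the next at 30.4 CPM. *Ilk* in vehicle culture 3 was at 4.23 CPM, with the next at 3.95 CPM. Each value was the highest of its group, and no culture was the far one for more than 1 gene.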

How the results depend on the processing

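Between 26 and 29 members were called over the 14 alternatives of tool, scaling, filter, counting unit and left-out culture, against 27 in the main comparison, with 14 to 16 higher and 12 to 14 lower. Integrin subunits gave 13 to 15 calls, adaptors 13 to 14, other focal adhesion genes 43 to 46, ligand genes 32 to 34 and all genes 8559 to 9301. Of the 27 called members 25 kept the call under all of them. *Itga2b* (log2 fold change −0.32 to −0.22) and *Fermt2* (0.07 to 0.12) did not. Of the 16 others, 4 gained a call under some alternative. These were *Itga11* without vehicle culture 1 (0.33), *Itgb6* without vehicle culture 3 (0.82) or TGF‐β1 culture 8 (0.67), *Pxn* with library totals (−0.06) or without TGF‐β1 culture 5 (−0.07), and *Tns2* with DESeq2, its size factors, the stricter filter, with counts divided by 2, or with any of 3 cultures left out (0.06 to 0.07). Members near 0 changed sign. *Bcar1* was at −0.0086 with library totals and −0.0034 with every gene that had a count tested, and ranged from −0.0044 to 0.0175 with a culture left out. With a culture left out, *Itgam* ranged from −0.20 to 0.10 and *Tln1* from −0.027 to 0.0009. With the longest transcript as gene length, the change in share of the α total was 6.76 percentage points for *Itga5*, 3.74 for *Itgav*, −6.80 for *Itga10* and −3.05 for *Itga1*, against 7.94, 3.22, −8.44 and −2.28 with exon unions. With a culture left out, the β share changed by −6.65 to −6.28 points for *Itgb1* and by 6.89 to 7.25 points for *Itgb5*. The median log2 fold change over the genes tested lay between −0.022 and −0.0016 under these alternatives. The causes of these shifts were not tested. No paired analysis was possible because the labels number the vehicle cultures 1 to 4 and the TGF‐β1 cultures 5 to 8, with no number shared.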
